A study of Mus musculus with 6 samples.

Results

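Matrix metalloproteinases and their tissue inhibitors were followed through 6 mouse RNA sequencing libraries. The rule takes 10 genes by name, with no threshold on a value: the proteases Mmp8, Mmp9, Mmp12, Mmp13, Mmp14, Mmp19 and Mmp25, and the inhibitors Timp1, Timp2 and Timp3. They are 10 of the 55536 named genes in the table. All 10 had at least 1 CPM, a count corrected for library depth, in some library and so were among the 14719 genes analysed, although Mmp25 and Timp3 passed in M-BMDM after 24 h only through the other libraries. In every group the mice were C57BL/6, aged 8 weeks, and the labels name no genetic change. One library was uncultured bone marrow (BM). M-BMDM are macrophages obtained from marrow in 7 days with the growth factor M-CSF, and GM-BMDM are those obtained with GM-CSF. Both were sequenced untreated and after 3 h of interleukin-6 (IL6), and M-BMDM also after 24 h. The labels name 1 untreated library per macrophage type, do not give the IL6 dose, and do not say how many mice or cultures went into a library. With 1 library per group, the interval beside a ratio covers counting error alone, and no ratio has a replicate check.

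Matrix metalloproteinases are zinc-dependent proteases that cut collagens, elastin and other matrix proteins and release growth factors and cytokines from the cell surface. Most are secreted as inactive precursors whose prodomain must be removed, and a few are held in the plasma membrane. Tissue inhibitors of metalloproteinases bind the active site and so set how much protease activity remains. In blood-forming tissue, Mmp8, Mmp9 and Mmp25 are known as products stored in neutrophils, Mmp12 as the elastase of macrophages, and Mmp9, Mmp13 and Mmp14 also as proteases of bone.

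Of the proteases, Mmp13, Mmp12 and Mmp8 lie in 1 gene cluster on chromosome 9 and had different patterns. Mmp13 and the unlinked Mmp14 had a similar pattern, with smaller differences given below. The promoter sequences of all these genes are shown for this reason. RefSeq sequences of build GRCm38.p6 were matched by symbol for 8 of the 10 genes; no entry was matched for Mmp9 and Mmp19. Each line gives the 250 bases before an annotated start site, with 2 start sites for Mmp12. Capitals mark TGANTCA, the site bound by AP-1, the dimer of Fos and Jun proteins.
Mmp13 (chr9:7272264-7272513, plus strand): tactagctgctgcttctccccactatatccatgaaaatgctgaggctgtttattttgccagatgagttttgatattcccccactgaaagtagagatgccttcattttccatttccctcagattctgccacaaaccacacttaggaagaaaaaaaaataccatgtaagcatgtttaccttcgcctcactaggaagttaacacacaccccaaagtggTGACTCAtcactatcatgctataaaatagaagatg
Mmp14 (chr14:54431348-54431597, plus strand): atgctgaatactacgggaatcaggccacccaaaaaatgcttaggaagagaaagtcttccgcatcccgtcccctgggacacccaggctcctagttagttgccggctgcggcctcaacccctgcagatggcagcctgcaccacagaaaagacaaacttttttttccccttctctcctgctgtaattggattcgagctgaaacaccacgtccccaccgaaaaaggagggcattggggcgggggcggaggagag
Mmp12, first start (chr9:7344147-7344396, plus strand): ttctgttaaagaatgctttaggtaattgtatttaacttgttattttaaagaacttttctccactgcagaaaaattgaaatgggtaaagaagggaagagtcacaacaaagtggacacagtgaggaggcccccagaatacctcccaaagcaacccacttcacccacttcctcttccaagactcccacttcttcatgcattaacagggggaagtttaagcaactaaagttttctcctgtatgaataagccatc
Mmp12, second start (chr9:7347124-7347373, plus strand): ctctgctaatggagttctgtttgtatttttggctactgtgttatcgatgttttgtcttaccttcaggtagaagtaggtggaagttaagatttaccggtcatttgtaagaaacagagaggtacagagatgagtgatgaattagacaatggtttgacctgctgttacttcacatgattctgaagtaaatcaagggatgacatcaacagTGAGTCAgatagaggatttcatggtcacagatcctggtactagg
Mmp8 (chr9:7558179-7558428, plus strand): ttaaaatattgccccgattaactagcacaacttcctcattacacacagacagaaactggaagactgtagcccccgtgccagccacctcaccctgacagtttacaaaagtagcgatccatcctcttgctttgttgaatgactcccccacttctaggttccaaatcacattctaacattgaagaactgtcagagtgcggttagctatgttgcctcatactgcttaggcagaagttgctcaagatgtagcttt

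TGANTCA, searched on both strands over the 250 bases before and 50 bases after each start, was found at 2 of the 8 genes. It began 35 bases before the start of Mmp13 and 44 bases before the second start of Mmp12. Of 32841 mouse promoter windows of the same length, 7.81% held a match. The TATA box letters TATAAA were found at Mmp13, at the second start of Mmp12 and, on the minus strand, at Mmp8, against 13.6% of all windows. GAGGAA, letters bound by the myeloid factor PU.1, were found at Mmp8, Mmp25 and the first start of Mmp12, against 28.3%. No window of the 8 genes held TTCNNNGAA, the letters bound by STAT proteins, or the cyclic AMP element TGACGTCA, which 8.3% and 1.79% of all windows held. No matches overlapped each other, and a match describes the letters only.

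The libraries held 18511777 to 24134374 counts in named genes. The labelled cell types were checked against marker genes. Against BM, 10 of 11 macrophage markers, all but Mertk, were 2-fold or more higher in M-BMDM, beside 20.1% of all genes compared. GM-BMDM also had 10 that were, all but C1qa, beside 19.8%. The summed level of 11 neutrophil markers was 37856 scaled CPM in BM, 2.12 to 3.58 in the M-CSF cultures and 20.8 to 20.9 in the GM-CSF cultures. Retnlg and Ly6g had no count in any culture. The 11 stromal and osteoblast markers summed to 920 scaled CPM in BM and 18.7 to 43.6 in the cultures. In bulk samples, fewer cells of a type and less RNA per cell cannot be told apart. Levels are given as scaled CPM, the CPM computed with library sizes that the TMM method corrects for composition.

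Some proteases were most abundant in marrow. Mmp9, the gelatinase that neutrophils carry in granules (chromosome 2, GRCm38), had 1192 scaled CPM in BM. It had 53.0 in untreated M-BMDM, 57.4 after 3 h and 6.39 after 24 h, and in GM-BMDM 3.36 untreated and 2.24 after 3 h. Mmp25, a protease anchored to the neutrophil membrane (chromosome 17), had 130 scaled CPM in BM, then 1.45, 1.90 and 0.249 in M-BMDM (untreated, 3 h, 24 h) and 4.51 and 6.23 in GM-BMDM (untreated, 3 h). Mmp8, the collagenase of neutrophils (chromosome 9), had 860 scaled CPM in BM, then 9.61, 8.34 and 8.88 in the M-BMDM libraries and 513 and 555 in the GM-BMDM libraries, in the same order. Mmp9 and Mmp25 were thus high in BM alone, whereas Mmp8 was high in BM and in both GM-CSF libraries. The 3 M-BMDM libraries did not differ in Mmp8 beyond counting error.

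The other 4 proteases were higher in untreated cultures of both types than in marrow. Mmp12, the macrophage elastase (chromosome 9, 7344381 to 7369499), had 1.11 scaled CPM in BM, then 462, 444 and 272 in M-BMDM (untreated, 3 h, 24 h) and 11312 and 11506 in GM-BMDM (untreated, 3 h). In GM-BMDM it made up 1.02% of all counts and stood at place 17 of the 14719 genes by level per kilobase. Mmp19, a secreted protease that cuts basement membrane proteins (chromosome 10), had 7.69 scaled CPM in BM, then 24.6, 27.1 and 21.3 in the M-BMDM libraries and 656 and 670 in the GM-BMDM libraries. Mmp12 and Mmp19 were both far higher in the GM-CSF libraries than in the M-CSF libraries, with BM lowest.

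Mmp13 and Mmp14 shared a different pattern. Mmp13, a collagenase of bone and cartilage (chromosome 9), had 7.07 scaled CPM in BM, then 76.0, 60.3 and 6.64 in M-BMDM (untreated, 3 h, 24 h) and 110 and 104 in GM-BMDM (untreated, 3 h). Mmp14, the membrane protease that activates the precursor of Mmp2 (chromosome 14), had 17.4 scaled CPM in BM, then 309, 357 and 16.0 in the M-BMDM libraries and 335 and 320 in the GM-BMDM libraries. For both genes, 4 of the 5 macrophage libraries were high, and the library after 24 h of IL6 did not differ from BM beyond counting error.

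The inhibitors differed from each other in level. Timp2, which also helps Mmp14 to activate Mmp2 (chromosome 11), had 65.2 scaled CPM in BM, then 194, 189 and 150 in M-BMDM (untreated, 3 h, 24 h) and 170 and 178 in GM-BMDM (untreated, 3 h). Timp3, the inhibitor held in the matrix (chromosome 10), had 25.9 scaled CPM in BM, 4.24, 3.81 and 0.540 in the M-BMDM libraries, and 9.34 and 12.02 in the GM-BMDM libraries. Timp1, a soluble inhibitor (chromosome X), stayed under 5 scaled CPM in every library, with 0.370 in BM, 4.78, 4.31 and 1.45 in the M-BMDM libraries, and 4.001 and 2.19 in the GM-BMDM libraries. Timp2 was the highest of the 3 in all 6 libraries also by level per kilobase, where it made up 74.8% of the inhibitor sum in BM and 87.1% to 95.6% in the cultures.

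**Figure D1:**
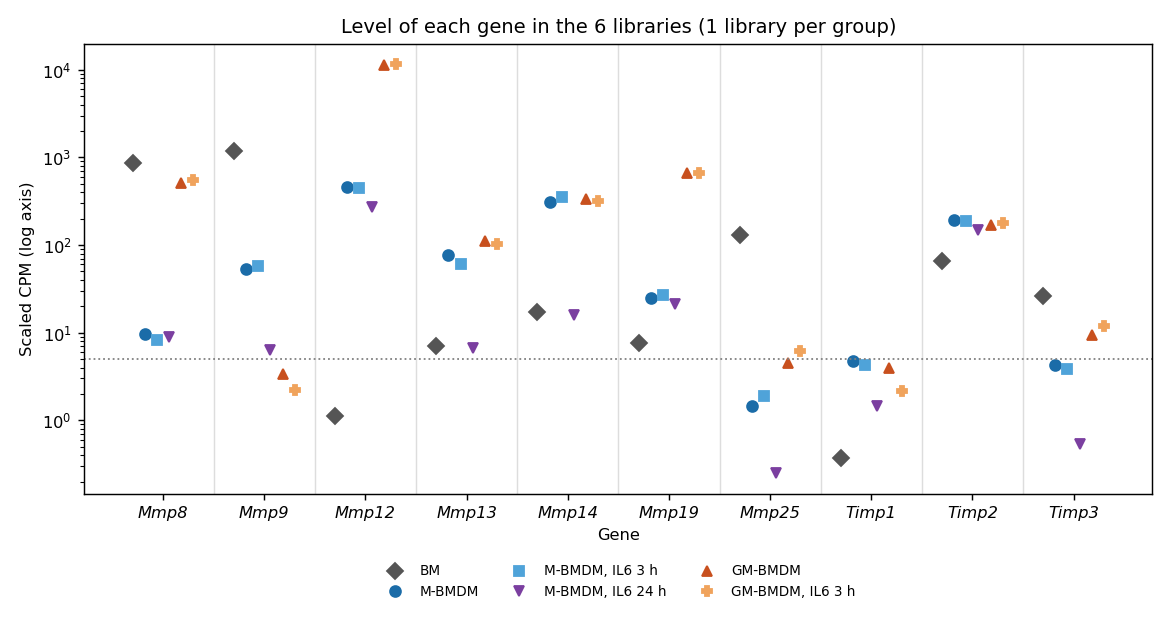
Level of the 10 genes in scaled CPM (log axis), 1 point per library and gene, with no replicates; the dotted line marks 5 scaled CPM. Mmp12 spans the range from 1.11 in BM to 11506 in GM-BMDM after 3 h of IL6, while Timp2 stays between 65.2 and 194.

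The count of Timp1 is uncertain, and with it the share of Timp2 in the inhibitor sum. Timp1 lies within Syn1, the gene of the synaptic protein synapsin I, on the opposite strand, and whether the counting used strand is not given in the sources used here. Syn1 was listed with 1.52 scaled CPM in BM, 29.8, 28.4 and 15.5 in the M-BMDM libraries, and 5.75 and 6.07 in the GM-BMDM libraries. Only whole gene spans were compared, not exons, so whether reads of the 2 genes could be confused was not checked. The sum of both genes gave a log2 ratio of -1.82 for GM-BMDM over M-BMDM, where Timp1 alone gave -0.26. Mmp19 overlaps Tmem198b on the opposite strand, but that gene had 6.13 to 17.8 scaled CPM and the sum of both kept the order of the Mmp19 levels. The genes that overlap Mmp12 (Mmp1b) and Timp3 (Syn3) had at most 11 counts in any library.

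The gene cluster on chromosome 9 shows how far neighbouring genes differed. It holds 10 Mmp genes within 427 kb. Relative to the start of Mmp12, Mmp13 begins at -71.9 kb and Mmp8 at 214 kb. Mmp12 had 11312 scaled CPM in GM-BMDM, while Mmp1b, which overlaps its end, had no count in any library. Mmp7, Mmp20 and the gene Mmp1a also had no count. Mmp3, the stromelysin, had 0 to 1.15 scaled CPM, and Mmp10, a close relative of it, had 0 to 1.07. Mmp27, the gene next to Mmp8, stayed between 1.15 and 4.53.

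**Figure D2:**
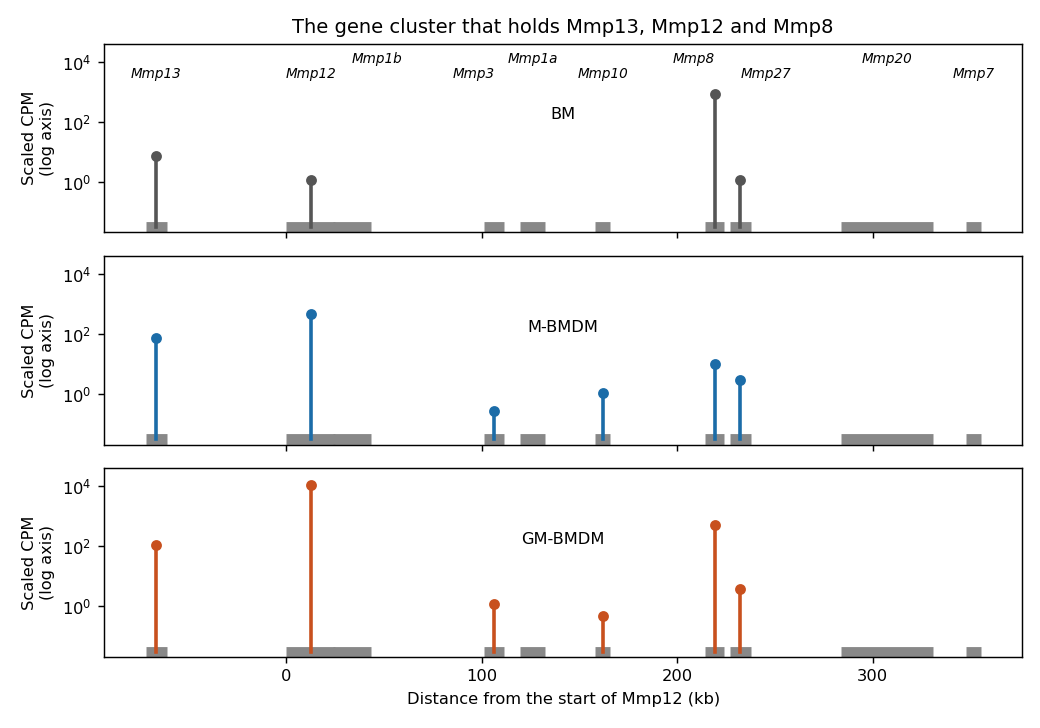
The Mmp gene cluster on chromosome 9, drawn as grey bars by distance in kb from the start of Mmp12, with each gene's level in scaled CPM (log axis) in BM, M-BMDM and GM-BMDM as stems; genes without a stem had no count. Mmp8 stands out in BM with 860 scaled CPM and Mmp12 in GM-BMDM with 11312.

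Untreated macrophages of both types had more Mmp12, Mmp13, Mmp14, Mmp19 and Timp2 transcripts than marrow and fewer of Mmp9, Mmp25 and Timp3. Calls of higher or lower required a 2-fold ratio, a 95% interval without 1, and 5 scaled CPM or more on the higher side. In M-BMDM against BM, Mmp12, Mmp13, Mmp14, Mmp19 and Timp2 were higher and Mmp8, Mmp9, Mmp25 and Timp3 lower. By this rule 20.1% of the 11245 genes at that level were higher and 23.0% lower, beside 5 and 4 of the 9 members at that level. Mmp12 reached 5 scaled CPM only in M-BMDM and could only be called higher. Mmp25 and Timp3 reached it only in BM and could only be called lower. The members were listed with earlier results of these data known, so these counts describe the listed genes only. The log2 ratio was 8.70 (8.16 to 9.30) for Mmp12, 4.15 (4.01 to 4.30) for Mmp14 and 3.43 (3.20 to 3.66) for Mmp13. It was -6.48 (-6.70 to -6.27) for Mmp8, -6.48 (-7.09 to -5.94) for Mmp25 and -4.49 (-4.58 to -4.40) for Mmp9. The median of the 10 genes was 1.63, against 0.06 over all genes at this level.

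In GM-BMDM against BM, which shares the BM library with the comparison above, Mmp12, Mmp13, Mmp14, Mmp19 and Timp2 were higher and Mmp9, Mmp25 and Timp3 lower. That is 5 and 3 of the 9 members at the level compared, against 19.8% and 22.3% of 11367 genes. Here Mmp12 could only be called higher, and Mmp9 and Mmp25 only lower, since they reached 5 scaled CPM on that side alone. Mmp12 was 10189-fold higher (log2 13.31, 12.77 to 13.92) on 27 counts in BM. Mmp19 was 85.3-fold higher (6.41, 6.21 to 6.63), and Mmp9 was 355-fold lower (-8.47, -8.82 to -8.14). Mmp8 was 1.68-fold lower, short of 2-fold (-0.75, -0.78 to -0.71), and past it with total counts as the scaling (-1.07), which gave 1692 genes higher and 3450 lower where TMM gave 2253 and 2532. In the same library, S100a8, a calcium-binding protein of neutrophils, had 8.88 scaled CPM against 5989 in BM, and S100a9, its partner, had 4.55 against 11052. Of the 11 neutrophil markers, 6 were under 1 scaled CPM in GM-BMDM, and Retnlg and Ly6g had no count. Their part in the Mmp8 level of GM-BMDM was not tested.

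GM-BMDM had more transcripts of Mmp8, Mmp12 and Mmp19 than M-BMDM and fewer of Mmp9. In GM-BMDM against M-BMDM without IL6, Mmp19 was 26.7-fold higher (log2 4.74, 4.60 to 4.87), Mmp12 24.5-fold (4.61, 4.58 to 4.65) and Mmp8 53.4-fold (5.74, 5.52 to 5.96), and Mmp9 was 15.8-fold lower (-3.98, -4.34 to -3.64). Timp3 was 2.20-fold higher (1.14, 0.76 to 1.53). These made 4 genes higher and 1 lower of the 8 members at the level compared, against 10.8% and 8.64% of 10495 genes. Timp3 reached 5 scaled CPM only in GM-BMDM and Mmp9 only in M-BMDM, so Timp3 could only be called higher and Mmp9 only lower. Scaling by total counts put Timp3 just under 2-fold (0.98) and gave 904 genes higher and 1191 lower, where TMM gave 1134 and 907. Between the libraries after 3 h of IL6, Mmp8 (6.06), Mmp12 (4.70), Mmp19 (4.63), Mmp25 (1.71) and Timp3 (1.66) were higher and Mmp9 (-4.68) lower, against 10.6% and 8.06% of genes. In that pair too, Mmp25 and Timp3 could only be called higher and Mmp9 only lower. Mmp25 had a like ratio without IL6 (1.64, 1.01 to 2.31) but stayed under 5 scaled CPM there.

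A test was possible for this difference because 4 libraries form 2 pairs, without and after 3 h of IL6. In edgeR's quasi-likelihood test with a term for IL6, 62.5% of 13023 genes passed an adjusted p of 0.05 (31.3% rose and 31.2% fell), and 7 of the 10 genes passed. Mmp8 rose by 5.90 on the log2 scale (standard error 0.114, adjusted p = 1.2e-137), Mmp19 by 4.68 (0.103, 2.5e-124) and Mmp12 by 4.65 (0.107, 4.2e-120). Mmp9 fell by 4.28 (0.138, 5e-88). Smaller changes that passed were those of Mmp25 (1.67, 0.305, 3.2e-07), Timp3 (1.40, 0.194, 2.6e-11) and Mmp13 (0.66, 0.0848, 1e-12), all of which rose. Mmp14 (-0.02, standard error 0.0856, adjusted p = 0.86), Timp2 (-0.14, 0.0837, 0.15) and Timp1 (-0.59, 0.276, 0.053) did not pass; with total counts Timp2 (-0.27) and Timp1 (-0.72) did. The fit has 1 residual degree of freedom per gene, which is how far the 2 pairs disagree, and shares a coefficient of variation of 6.71% across genes. Spread borrowed across genes counted for 264.7 prior degrees of freedom, so the p-values rest mostly on that borrowed spread. Spread between separate cultures of 1 type was not measured, and libraries of 1 type may share a culture, so the p-values may be too small.

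**Figure D3:**
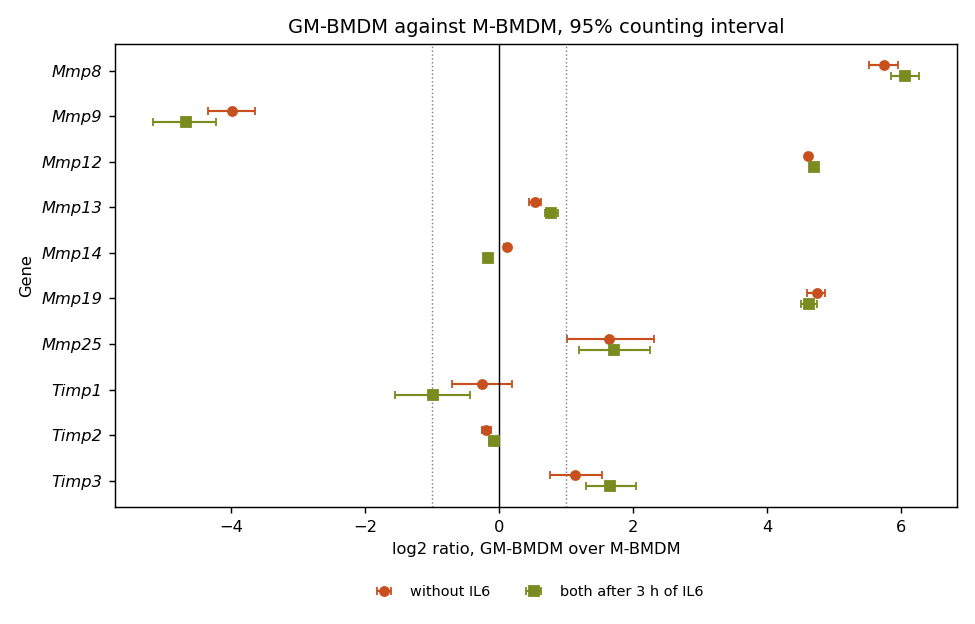
Log2 ratio of GM-BMDM over M-BMDM for each gene, without IL6 (circles) and after 3 h of IL6 (squares); bars are 95% intervals of counting error, and dotted lines mark 2-fold. Mmp8, Mmp12 and Mmp19 lie between 4.61 and 6.06 in both pairs, Mmp9 lies at -3.98 and -4.68, and Mmp14 and Timp2 lie near 0.

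Other cell markers differed between the cultures too. By the 2-fold rule, 10.8% of all genes at the level compared were higher in GM-BMDM and 8.64% lower. Of 9 osteoclast markers, 6 had the level to be compared: Acp5, Ctsk, Atp6v0d2 and Dcstamp were higher in GM-BMDM and Tnfrsf11a, the receptor for the osteoclast factor RANKL, was lower, and the summed level was 1410 scaled CPM against 196. Calcr and Oscar, both of osteoclasts, had no count in M-BMDM and only 3 and 6 counts in GM-BMDM, too few to be analysed. The 8 dendritic cell markers summed to 29.3 scaled CPM in M-BMDM against 1048 in GM-BMDM, of which the integrin Itgax alone made 26.2 and 994. Of these, 4 had the level to be compared, and Itgax, Ccr7, Clec9a and Fscn1 were higher in GM-BMDM. Ccr7, Clec9a and Fscn1 reached 5 scaled CPM in GM-BMDM but not in M-BMDM, so they could only be called higher. Of the 11 neutrophil markers, S100a8 was higher by the 2-fold rule, with 8.88 scaled CPM against 1.504, and it too could only be called higher. In edgeR's test, 4 of 4 neutrophil markers rose (S100a8, S100a9, Ltf and Ngp), as did 6 of 6 dendritic markers and 6 of 7 osteoclast markers, with 1 that fell. Of 7 stromal and osteoblast markers 4 rose (Lepr, Pdgfra, Pdgfrb and Runx2) and 1, Col1a1, fell. Over all genes in this test 31.3% rose and 31.2% fell. S100a9, Ltf, Ngp, Zbtb46, Ccr7, Clec9a, Cd209a, Ocstamp, Lepr and Pdgfra were under 1 scaled CPM in both M-CSF libraries of the fit. They entered it only through the GM-CSF libraries, so the direction of their change was largely set by the filter. The 7 markers of eosinophils, basophils and mast cells summed to 60.5 and 2.52, nearly all of it the lectin Siglecf. Of 11 macrophage markers, 8 were lower in GM-BMDM and 1, Mertk, was higher. The part of these markers in the Mmp differences was not tested.

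After 3 h of IL6, no gene of the 10 was counted as higher or lower in either macrophage type. Of them, 7 in M-BMDM and 8 in GM-BMDM had the level to be compared. With no lowest level, 0 of the 10 were called in either type. The background was small as well: 0.0906% of 9937 genes were higher and 0.272% lower in M-BMDM, and 0.0585% of 10255 were higher and 0.107% lower in GM-BMDM. In edgeR's test of IL6 for 3 h over both types, 0 of the 10 genes passed, against 1.1% of all genes (0.207% rose and 0.891% fell). The unadjusted p was below 0.05 for 1 of them, Mmp13 (log2 change -0.21, standard error 0.0846, unadjusted p = 0.014, adjusted p = 0.35), and DESeq2's Wald test also called 0. The largest single ratio was that of Timp1 in GM-BMDM, which had 87 counts without and 40 with IL6 (-0.87, -1.45 to -0.32), and 89 and 95 counts in M-BMDM (-0.15, -0.58 to 0.28). Summed with Syn1, the ratio in GM-BMDM was -0.24. Standard errors of the IL6 term were 0.0837 to 0.101 for Mmp8, Mmp12, Mmp13, Mmp14, Mmp19 and Timp2, and 0.124 to 0.300 for the others.

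After 24 h of IL6, M-BMDM had far fewer transcripts of Mmp14, Mmp13 and Mmp9. Against untreated M-BMDM, Mmp14 was 19.3-fold lower (log2 -4.27, -4.42 to -4.12), Mmp13 11.4-fold (-3.52, -3.76 to -3.28) and Mmp9 8.29-fold (-3.05, -3.31 to -2.81). These were the only calls among the 7 members at the level compared, and no gene of the 10 was higher with or without a lowest level. By the same rule 8.93% of 10313 genes were lower and 11.5% higher. Against the 3 h library, which shares the 24 h library, the log2 ratios of Mmp14, Mmp13 and Mmp9 were -4.48, -3.18 and -3.17, which are calls of lower, against 8.59% of genes lower and 11.7% higher. Those are 883 and 1202 genes, where total counts gave 685 and 1568. A single library stands for 24 h, and no untreated library is labelled as its 24 h control, so IL6 and time in culture cannot be told apart.

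The other 7 genes split by level. Timp3 (-2.97, -3.95 to -2.12), Mmp25 (-2.54, -4.11 to -1.24) and Timp1 (-1.72, -2.33 to -1.14) were past 2-fold against untreated M-BMDM but under 5 scaled CPM in both libraries, on 13, 6 and 35 counts after 24 h. With no lowest level, 6 of the 10 genes were lower, against 10.7% of genes, and 6 against the 3 h library, with 10.1% of genes. The sum of Timp1 and Syn1 gave -1.03. Mmp12 was 1.70-fold lower (-0.76, -0.81 to -0.72), Timp2 1.29-fold (-0.37, -0.44 to -0.30) and Mmp19 1.15-fold (-0.21, -0.39 to -0.02). Mmp8 had 179 counts without and 214 with IL6 (-0.11, -0.41 to 0.18), a difference within counting error. With no lowest level, the interval lay wholly below 1 for 9 of the 10 genes, against 32.3% of the 14719 genes. It did so for 8 of them when libraries were scaled by total counts, which moved every ratio up by 0.14 and that of Mmp8 to 0.02.

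Of the 11 macrophage markers, Mertk was higher and Cd14 lower in the 24 h library than in untreated M-BMDM. Over all genes, 11.5% were higher and 8.93% lower. Neutrophil markers summed to 2.12 scaled CPM after 24 h and 2.52 without IL6, stromal and osteoblast markers to 18.7 and 33.8, and osteoclast markers to 139 and 196. Bglap had no count in either library. The part of these markers in the lower Mmp values was not tested.

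**Figure D4:**
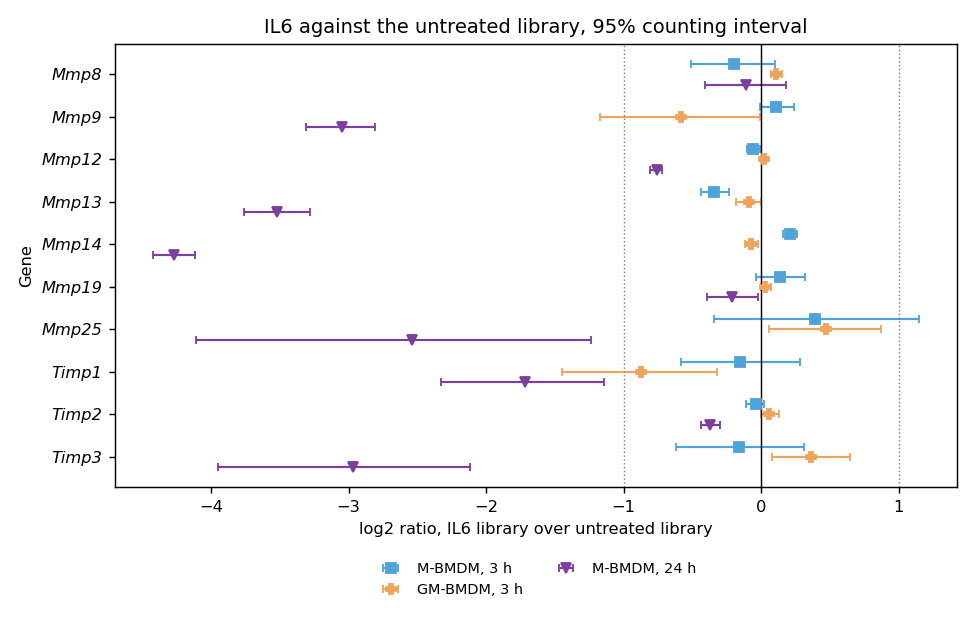
Log2 ratio of each IL6 library over its untreated library for the 10 genes, with 95% intervals of counting error and dotted lines at 2-fold. The 3 h ratios lie between -0.87 and 0.47, while the 24 h ratios of M-BMDM reach -4.27 for Mmp14, -3.52 for Mmp13 and -3.05 for Mmp9.

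The balance of protease and inhibitor transcripts was compared per kilobase of gene length, as the authors' table gives it. The 7 Mmp genes summed to 771 scaled CPM per kilobase in BM, then 304, 313 and 96.0 in M-BMDM (untreated, 3 h, 24 h) and 3713 and 3780 in GM-BMDM (untreated, 3 h). The 3 Timp genes summed to 23.5 in BM and 42.4 to 58.9 in the cultures, with the uncertain count of Timp1 as listed. Reads of Timp1 listed under Syn1, if any, would raise these sums and lower the ratios that follow. The ratio of the sums was 32.8 in BM, 5.15, 5.51 and 2.27 in the M-BMDM libraries, and 70.5 and 71.1 in the GM-BMDM libraries. Mmp12 alone was 84.5% of the protease sum in GM-BMDM, 42.2% in M-BMDM and 0.0399% in BM. Without Mmp12 the ratio was 32.8 in BM, 10.96 in GM-BMDM and 2.98 in M-BMDM, so BM then stood above GM-BMDM. It was 0.487 in M-BMDM after 24 h, the lone library where the inhibitor sum exceeded that of the other 6 proteases. These are sums of transcripts, and neither protein nor activity was measured.

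**Figure D5:**
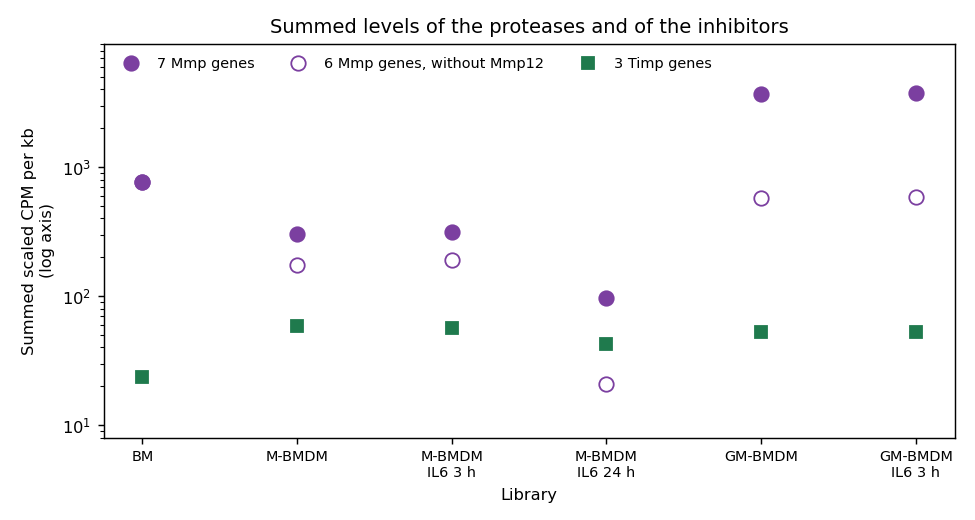
Summed level per kilobase (log axis) of the 7 Mmp genes, of the 6 without Mmp12 and of the 3 Timp genes in each library, 1 library per group. Timp1 enters with its uncertain count as listed. The Timp sum lies between 23.5 and 58.9, while the Mmp sum runs from 96.0 in M-BMDM after 24 h of IL6 to 3780 in GM-BMDM after 3 h; in BM the points with and without Mmp12 coincide.

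Related genes were counted from fixed lists. Among 17 other Mmp and Timp genes, 4 had no count, and Mmp2, the gelatinase that Mmp14 activates, was the only call between the macrophage types. Its level was 1.45 scaled CPM in M-BMDM against 42.7 in GM-BMDM (log2 4.88, 4.33 to 5.49), so it could only be called higher. In edgeR's test, Mmp2 and Mmp3 rose in GM-BMDM and 0 of the 5 genes tested fell. Mmp3 was under 1 scaled CPM in both M-CSF libraries of the fit and entered it only through GM-BMDM. Of 19 related proteases of the ADAM and ADAMTS kind, 4 rose and 5 fell of 11 tested, with Adamts1, which cuts proteoglycans, higher in GM-BMDM (3.71) and Adam8, a membrane protease of leukocytes, lower (-3.04). Of 20 activators, docking partners and uptake receptors, 8 rose and 4 fell of 15. Serpinb2, an inhibitor of plasminogen activators, was higher in GM-BMDM (3.05), and the integrin Itgav was lower (-2.60). Of 19 matrix substrates, 6 rose and 5 fell of 16, with Fn1, fibronectin (3.72), and Spp1, osteopontin (1.94), higher and the collagens Col18a1 (-6.79) and Col1a1 (-1.46) lower in GM-BMDM. Between the 3 h libraries Col1a1 had a log2 ratio of -0.50 and was not called, with 4.85 scaled CPM in M-BMDM after 3 h against 10.1 untreated. Adamts14 and Col5a1, counted as rising, also entered the fit only through the GM-CSF libraries, and Plat, an activator counted as falling, only through the M-CSF libraries. The direction of these changes was largely set by the filter. By the 2-fold rule, Adamts1 and Serpinb2 could only be called higher in GM-BMDM, and Col18a1 and Col1a1 only lower. The shares that rose and fell over all genes were those given above, and no list had a gene that passed for IL6 at 3 h.

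Transcription factors known to act on Mmp promoters were mostly lower where M-BMDM had been given IL6 for 24 h. Of 15 such genes, 13 had at least 5 scaled CPM, of which 8 were lower and 0 higher, against 8.93% and 11.5% of all genes at that level, with a median log2 ratio of -1.35 against 0.02 over all genes. The 4 that the naming rule picked were Ets2 (-2.02), Fos (-1.79), Nfkb1, a subunit of NF-kappaB (-1.67), and Jun (-1.23). Fosl1, a Fos relative chosen after its values were seen, had levels in M-BMDM of 28.5, 26.4 and 0.581 scaled CPM (untreated, 3 h, 24 h). In GM-BMDM against M-BMDM, which shares the untreated M-BMDM library, Fos (-2.80), Ets2 (-1.73), Nfkb1 (-1.28) and Jun (-1.19) were lower. In edgeR's test 2 of 14 rose and 9 fell, of which Fosl1 entered the fit only through the M-CSF libraries. The AP-1 letters printed above lie at Mmp13 and at the second start of Mmp12, and not in the Mmp14 window. After 24 h the log2 ratios of these genes were -3.52 for Mmp13, -0.76 for Mmp12 and -4.27 for Mmp14. Of the activators and partners, 7 were lower and 1 higher of 11 after 24 h, against the same shares of all genes. The lower ones include the proprotein convertase Furin (-1.02), which activates Mmp14, and Cd44 (-2.04), a docking receptor of Mmp9 and Mmp14. Both were chosen after their values were seen. The part of the transcription factors, the AP-1 letters and these partners in the Mmp levels was not tested.

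Genes of nearest pattern were found by the root mean square difference of log2(scaled CPM + 1) over the 6 libraries, each gene centred on its own mean, among 11040 genes. For Mmp13 these were Adora2b, an adenosine receptor (0.24), Socs3, the feedback inhibitor of IL6 signalling (0.28), and Hilpda, a lipid droplet protein (0.30), and for Mmp14 they were Maff (0.37), Sdc1, syndecan 1 (0.44), and Hilpda (0.44). Mmp13 and Mmp14 were each other's nearest of the genes described here (0.48). For Mmp19 the nearest were Wfdc17 (0.33), Tmem151a (0.36) and Bex1 (0.36), and for Mmp8 Dennd3 (0.59), Il1f9, an interleukin-1 relative (0.61), and the ribonuclease Ear6 (0.74). Mmp25 had Alox12, a lipoxygenase (0.29), Hdc, the histamine enzyme (0.29), and Hip1r (0.31). Timp3 had Phospho1 (0.10), the formyl peptide receptor Fpr1 (0.20) and H2-Q7 (0.21), and Timp2 had Rmdn2, Slc26a2 and Arl8a (each 0.05). Mmp12 and Mmp9 had no gene as near: Spp1 (1.31), Atp6v0d2 (1.57) and Gpnmb (1.63) for Mmp12, and Tmcc2 (1.03), Slfn4 (1.06) and Isg20 (1.12) for Mmp9. Timp1, under 5 scaled CPM throughout, was left out. These are descriptions over 6 libraries, of which 3 share M-CSF growth and 2 share GM-CSF growth.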

How the data were processed

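Total RNA from 6 mouse samples was sequenced. The deposited table holds expected counts, not all of them whole, and the gene lengths used here for levels per kilobase. Per the submitters' processing notes, HISAT2, StringTie and DESeq2 were used with build GRCm38; for versions, settings and strand nothing is given in the sources used here. Counts were rounded. Rows without a gene name held 0.240% to 0.522% of counts and were left out. Positions come from GENCODE M21.

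Scaling was by TMM in edgeR 4.0.16 under R 4.3.3. Genes with 1 CPM in a library were analysed, and in the 4-library fit those with 1 CPM there. Ratios carry exact 95% Clopper-Pearson intervals of the conditional binomial (scipy 1.17.1), which cover counting error only, since no molecular identifiers are named and reads may be copies. edgeR's quasi-likelihood test used Benjamini-Hochberg adjustment over all genes; the standard error is the change divided by the root of F. Steps were tested on simulated data.

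The list of members, the gene lists and the tests were all drawn up with earlier results of these data known. All 10 members were named, with up to 4 genes per list that differed between GM-BMDM and M-BMDM, by mean level, and 3 genes of nearest pattern; other list genes named, such as Mertk, Dcstamp, S100a9, Ltf, Ngp, Lepr and Mmp3, were chosen after their values were seen. One list gene that the rule picks is not reported here. Alternatives were other scalings, fold and CPM limits, no interval, other filters, all 6 libraries and DESeq2 1.42.0.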

Additional observations from a re-analysis of the deposited data

Results flagged for a closer look

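Mmp12 and Mmp14 had 3 h IL6 ratios of opposite direction in the 2 macrophage types, each with an interval of counting error that excluded 1. Such intervals were common. Over all genes with at least 5 scaled CPM, 22.9% lay above 1 and 20.5% below in M-BMDM, and 16.9% and 13.6% in GM-BMDM. The share of all genes with opposite directions was not counted. For Mmp14 the log2 ratios were 0.21 and -0.07 in M-BMDM and GM-BMDM, a difference of -0.27 (-0.34 to -0.20, counting error only). For Mmp12 they were -0.06 and 0.02, a difference of 0.08 (0.04 to 0.12). Both Mmp12 ratios were smaller in size than the standard error of the IL6 term for this gene in edgeR's test, 0.0923. The directions were the same under each of the 3 other scalings. With 1 library per group the difference between the types was not tested.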

How the results depend on the processing

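Counts of the 10 genes stayed within 1.5 times under every alternative run, except that a lowest level of 1 CPM raised the number lower after 24 h from 3 to 6, against untreated M-BMDM and against the 3 h library alike. Fitted changes near 0 turned sign in 3 cases: Mmp14 between the macrophage types was 0.01 with DESeq2 size factors, Timp2 for IL6 at 3 h was -0.01 with total counts, and Mmp9 for IL6 at 3 h was 0.00 with all 6 libraries. Timp1 passed the test between the macrophage types with total counts (-0.72) or without a filter (-0.59), and Timp2 with total counts (-0.27), which made 9 and 8 genes called in place of 7. Total counts moved every ratio of GM-BMDM to M-BMDM by -0.16 and left 4 of the 10 genes called there. After 24 h total counts gave 1463 and 757, where TMM gave 1186 and 921. Of 240 ratios recomputed with other scalings, 201 stayed in the main interval and 39 did not, and none that was called turned sign. At the CPM filter of 5, Timp1 was not tested. No paired analysis was possible because the labels give no replicate numbers and each group has 1 library, so no replicate could be left out either. The IL6 term of the fit matches libraries by treatment, not by replicate. Depth limits Timp1, Mmp25 and Timp3, which had 6 to 95 counts in the M-BMDM libraries.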

Other observations

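Low transcripts of further family members were also counted. Mmp27 had 52 counts in M-BMDM and 109 after 24 h of IL6 (log2 ratio 0.70, 0.21 to 1.2), so its ratio lay above 1 while the interval of 9 of the 10 genes described above lay below 1. Mmp11, known from stroma, had 4 counts in M-BMDM and 22 after 24 h (2.09, 0.53 to 4.09), and 81 in BM. Mmp10 had 20 counts in M-BMDM and 2 after 24 h. Mmp28 had 133 counts in BM and 13 to 27 in the cultures. All 4 stayed under 5 scaled CPM in the macrophage libraries, were picked after their values were seen, and were not tested for 24 h.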
